A study of Mus musculus with 12 samples.

Results

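Neuropeptide precursors are the secretory proteins from which neurons cut short signalling peptides, and 10 of their genes are described here among the 24421 gene symbols that were counted: Sst, Npy, Vip, Cck, Penk, Pdyn, Tac1, Tac2, Crh and Cort. The genes were taken by symbol, and 10 of the 10 were found and had at least 1 count in each of the 12 libraries. The libraries hold polyribosomal RNA, the RNA that pellets with ribosomes through a sucrose cushion, from the hippocampus of C57/Bl6 mice aged 6 weeks, with no genetic change named. The sample group label divides them into 6 control and 6 fear case libraries. The same protocol text stands with every library: 2 days of single housing with habituation to the test room, then 8 min in a context new to the mouse, 7 min in its own cage and death at 15 min. How the control mice were handled instead, and whether a shock was given to the fear case mice, is not stated. Nothing in the labels says that each library came from its own mouse, so the spread between libraries may be partly technical.

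A precursor enters the secretory pathway, is cut by prohormone convertases at pairs of basic residues, is trimmed by carboxypeptidase E and is often amidated at its end before it is stored in dense-core vesicles. In the hippocampus most of these genes are known as marks of GABAergic interneuron classes: Sst in interneurons that contact distal dendrites, Npy in neurogliaform and other interneurons, Vip in interneurons that contact other interneurons, and Cck in basket cells and at a lower level in pyramidal cells. Penk and Pdyn encode opioid precursors, and dynorphin is a known peptide of dentate granule cells and their mossy fibres. In whole tissue a transcript of a sparse cell class is diluted by the RNA of all other cells, and fewer cells of a class and less RNA per cell cannot be told apart.

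Several of these precursors share short peptide-coding stretches, which bears on how 40 bp reads are assigned to genes. Sst and Cort encode the related peptides somatostatin and cortistatin, and the 13 codons around their common core are printed 5′ to 3′ from the GENCODE vM21 transcripts Sst-201 (from codon 104) and Cort-201 (from codon 96), with the bases that differ in capitals. Of the 39 aligned bases 31 were the same, and 11 of the 13 codons encode the same residue.
Sst: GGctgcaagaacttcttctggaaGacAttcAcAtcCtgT
Cort: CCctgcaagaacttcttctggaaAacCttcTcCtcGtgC
Tac1 encodes substance P and neurokinin A, and Tac2 encodes neurokinin B. The 3 tachykinin stretches are shown with the codons of the shared peptide end in capitals, followed by the codon of the amide donor and a basic pair. The first Tac1 stretch is that of substance P and starts at codon 59, the other one is that of neurokinin A and starts at codon 98, and that of Tac2 starts at codon 82.
Tac1 substance P: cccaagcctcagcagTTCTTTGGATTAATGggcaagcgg
Tac1 neurokinin A: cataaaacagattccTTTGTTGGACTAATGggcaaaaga
Tac2 neurokinin B: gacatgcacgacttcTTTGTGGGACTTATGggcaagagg
Penk held 6 coding copies of Met-enkephalin and 1 of Leu-enkephalin, and Pdyn held 3 of Leu-enkephalin as the start of its longer peptides. The Leu-enkephalin codons of Penk and the first of those of Pdyn are shown in capitals between their basic pairs.
Penk: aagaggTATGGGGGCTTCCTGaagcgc
Pdyn: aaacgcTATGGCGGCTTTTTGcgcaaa
Among the 45 pairs of members the longest run of identical coding bases was 21, between Sst and Cort, followed by 15 between Penk and Pdyn. No stretch of 40 bases was shared between members. For 8 of the 10 genes no stretch of 40 transcript bases, on either strand, occurred in another GENCODE gene. The exceptions were Vip, with 13 such stretches among 3389, and Penk, with 156 among 1591, all of the latter in the overlapping opposite-strand gene A830012C17Rik, which is not among the counted symbols.

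Somatostatin transcription is a textbook case of control by cAMP through the CRE, an element bound by the activity-dependent factor CREB, so the promoters were searched for it. RefSeq promoter windows (GRCm38.p6, 250 bases before to 50 after the start) were matched for 8 of the 10 genes, with 2 windows for Pdyn. Penk and Crh had no window and were not searched. The full element TGACGTCA was in the window of Sst alone among them and in 1.79% of all 32851 windows. Its shorter core CGTCA, searched on both strands and contained in the full element on each strand, was in the windows of 5 of these 8 genes and in 20.8% of all windows. The 30 bases around the site nearest the start are shown on the gene's strand with the element in capitals.
Sst (chr16:23890874-23890903, minus strand): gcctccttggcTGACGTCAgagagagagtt
Vip (chr10:5639127-5639156, plus strand): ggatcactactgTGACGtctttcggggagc
Cck (chr9:121495724-121495753, minus strand): cctgctggactgCGTCAgcactgggtaaac
Tac1 (chr6:7555006-7555035, plus strand): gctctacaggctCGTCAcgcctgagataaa
Cort (chr4:149126764-149126793, minus strand): ctccggcttgtgCGTCAccgcgtgagtgtg
In Vip the short element lies on the opposite strand. In Sst and Tac1 the printed bases lie inside the gene span given below, since the GENCODE gene starts before the RefSeq start used here. The AP-1 element TGANTCA was in the windows of 0 of the 8 genes and in 7.81% of all windows. These are matches of letters in a fixed window and say nothing of binding.

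Between the labelled groups, the question was which transcripts on hippocampal polyribosomes differed 15 min after the context was entered. None of the 10 precursors did so by the test: 0 of 10 passed at an adjusted p under 0.05 (edgeR's quasi-likelihood test, Benjamini-Hochberg over 14564 genes), against 0.103% of all genes tested. At an unadjusted p under 0.05 there were also 0 of 10, against 7.14% of all genes tested, and DESeq2 and limma-voom called 0 of 10 as well. The adjusted p ranged from 0.795 for Penk to 0.981 for Pdyn. Of the log2 fold changes 7 were negative and 3 positive, with a median of -0.09, against -0.0046 over all genes tested. The CPM values of the groups failed to overlap for 0 of the 10, against 0.59% of all genes tested. The same fit called the activity-regulated genes Fos, Npas4 and Arc, with log2 fold changes of 2.25, 2.06 and 0.80.

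A missed threshold does not show equal levels, and the 95% intervals give the differences these libraries leave possible. The interval lay between a 1.5-fold decrease and a 1.5-fold increase for 6 genes (Sst, Npy, Vip, Cck, Penk and Pdyn). It lay within 2-fold either way for 8, adding Tac1 and Cort, and reached past 2-fold upward for Tac2 and Crh.

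**Figure D1:**
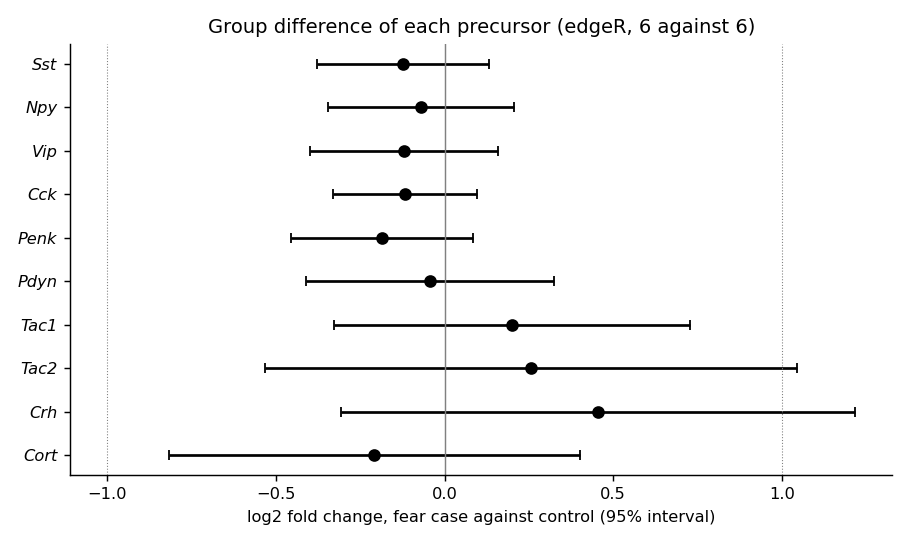
Log2 fold change of fear case against control for each precursor gene (points) with its 95% interval from edgeR's quasi-likelihood fit (bars), 6 libraries per group; dotted lines mark 2-fold. All 10 intervals include 0, the narrowest that of Cck (-0.33 to 0.09) and the widest those of Tac2 (-0.53 to 1.04) and Crh (-0.31 to 1.22).

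Values are given below as CPM, a gene's counts scaled to the library size after TMM, with the lowest, median and highest library of each group and then mean ± SD (n = 6). Sst, the precursor of somatostatin, which inhibits release and excitability, spans bases 23889573 to 23890958 of chromosome 16 (GRCm38, minus strand, 2 exons). Its controls were 84.2, 89.6 and 152 CPM at the lowest, median and highest, and the fear case libraries were 76.2, 89.3 and 110 CPM. The medians of the groups were thus nearly the same, while 1 control, control 1, stood far above the next at 99.1 CPM, and 3 fear case libraries lay below all controls. The means were 100.4 ± 25.5 and 92.1 ± 14.2 CPM, and their log2 fold change was -0.12 (SE 0.12, adjusted p = 0.862). Without control 1 the sign turned, to 0.034 (adjusted p = 0.968).

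Cort, the precursor of the related cortistatin, spans bases 149125034 to 149126763 of chromosome 4, minus strand, and was a low transcript with 23 to 69 counts per library. The controls were 1.35, 1.65 and 3.51 CPM at the lowest, median and highest, and the fear case libraries were 1.20, 1.54 and 2.43 CPM. Control 1 was again the highest library of all, and 1 fear case library lay below all controls. The log2 fold change was -0.21 (SE 0.29, adjusted p = 0.915), and it was 0.035 without control 1 (adjusted p = 0.992).

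Npy, the precursor of neuropeptide Y, which damps glutamate release in the hippocampus, spans bases 49822710 to 49829507 of chromosome 6, plus strand. The controls ranged from 25.3 to 42.7 CPM around a median of 34.6, and the fear case libraries from 25.8 to 44.7 CPM around 31.8. Each group filled nearly the same range. The means of 35.1 ± 6.72 and 33.5 ± 7.17 CPM gave a log2 difference of -0.07 (SE 0.13, adjusted p = 0.941). Leaving out 1 library gave values from -0.17, when that was fear case 2, to -0.0046, when it was control 1.

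Vip, the precursor of vasoactive intestinal peptide, spans bases 5639218 to 5647617 of chromosome 10, plus strand. Its controls were 7.57, 8.96 and 11.9 CPM at the lowest, median and highest, and the fear case libraries were 7.40, 8.77 and 10.1 CPM. The log2 fold change was -0.12 (SE 0.13, adjusted p = 0.884), or -0.035 without control 1 (adjusted p = 0.981), and 2 fear case libraries lay just below all controls.

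Cck, the precursor of cholecystokinin, was the most abundant of the 10 by CPM and ranked 1218 by mean CPM among the genes tested. It spans bases 121489824 to 121495694 of chromosome 9, minus strand. The controls were 144, 176 and 228 CPM at the lowest, median and highest, and the fear case libraries were 134, 170 and 189 CPM. Here too the highest library was control 1 and the lowest fear case 1. Control 3 (193 CPM) also lay above all fear case libraries, and 2 fear case libraries lay below all controls. The means were 179 ± 29.5 and 165 ± 23.9 CPM, and their log2 fold change was -0.12 (SE 0.10, adjusted p = 0.838). It was -0.034 without control 1 (adjusted p = 0.970) and -0.067 without fear case 1 (adjusted p = 0.919).

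Crh encodes corticotropin-releasing hormone, the stress peptide that a sparse class of hippocampal interneurons also makes, and had the largest log2 fold change of the 10, at 0.46 (SE 0.37, adjusted p = 0.824). It spans bases 19693401 to 19695396 of chromosome 3, minus strand. The controls spread from 0.21 CPM, which is 4 counts in control 2, to 2.39 CPM in control 1, with a median of 1.07. The fear case libraries lay inside that range, at 1.20, 1.73 and 1.87 CPM at the lowest, median and highest. The coefficient of variation was 61.9% in the controls and 15.2% in the fear case libraries. Counting error, taken as the root of the mean of 1 over each library's count, was 27.3% and 16.3%. The control value of this estimate is raised by the 4 counts of control 2. The log2 fold change was 0.78 without control 1 (adjusted p = 0.699), 0.24 without control 2 (adjusted p = 0.930), and 0.74 by limma-voom (adjusted p = 0.697).

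**Figure D2:**
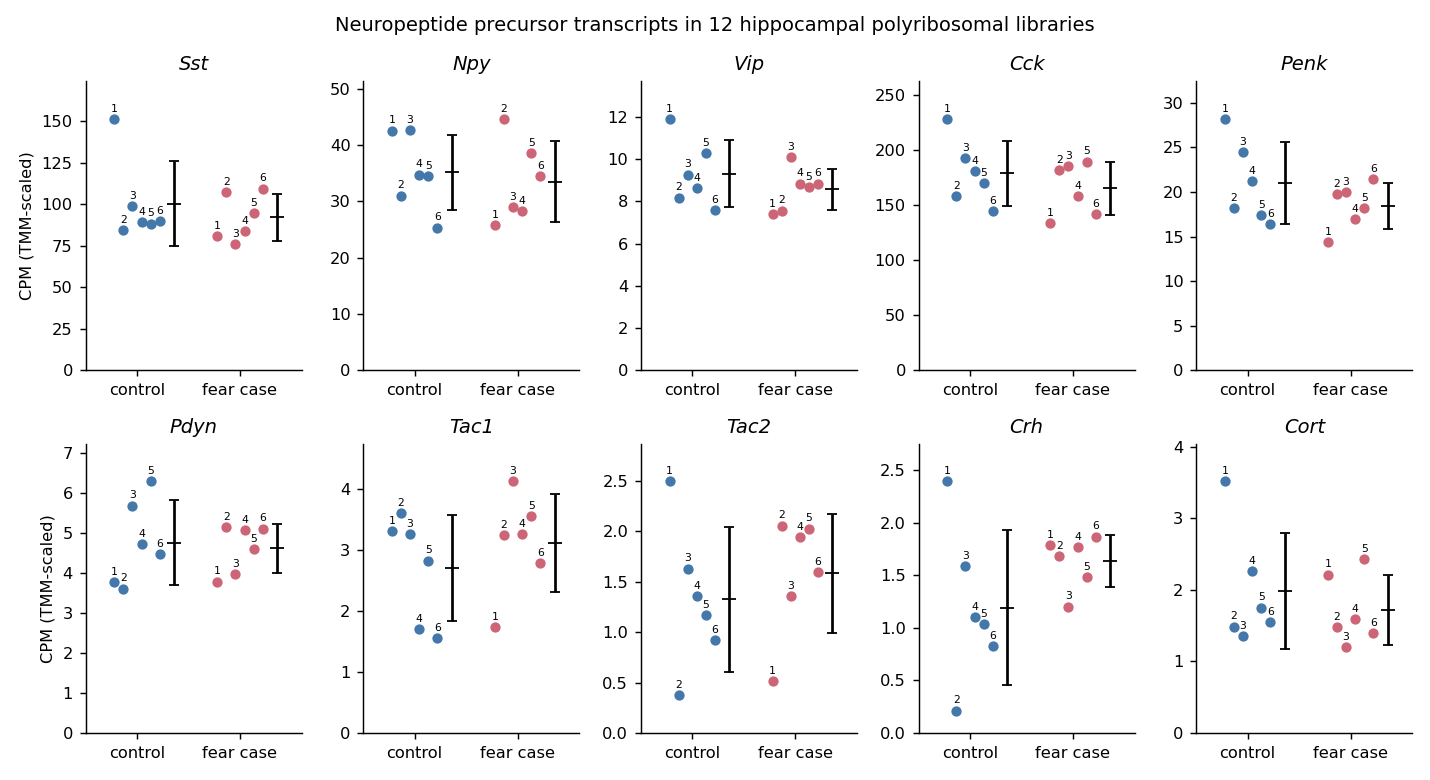
CPM (TMM-scaled) of each of the 10 precursor genes in the 6 control and 6 fear case libraries; points are libraries with their replicate number, and black bars are mean ± SD. The groups overlap in every panel, and control 1 is the highest library for 7 genes, among them Sst at 152 and Cck at 228 CPM.

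Penk, the proenkephalin gene, spans bases 4133531 to 4138819 of chromosome 4, minus strand, and had the lowest adjusted p of the members, 0.795. The controls were 16.4, 19.7 and 28.2 CPM at the lowest, median and highest, and the fear case libraries were 14.3, 18.9 and 21.4 CPM. The controls reached higher, through control 1 and also control 3 (24.5 CPM), but 5 of the 6 fear case libraries lay within their range. The means of 20.98 ± 4.61 and 18.4 ± 2.53 CPM gave a log2 fold change of -0.19 (SE 0.13), which was -0.081 without control 1 (adjusted p = 0.928).

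Pdyn, the prodynorphin gene, spans bases 129686565 to 129699844 of chromosome 2, minus strand. It ran from 3.61 to 6.29 CPM in the controls (median 4.59) and from 3.79 to 5.14 CPM in the fear case libraries (median 4.84). All fear case values lay within the control range, the log2 fold change was -0.04 (SE 0.18), and unlike Penk its highest library was control 5. Leaving out control 3, control 5 or fear case 1 turned the sign, to values between 0.0054 and 0.053.

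Tac1, the precursor of substance P, spans bases 7554879 to 7565834 of chromosome 6, plus strand. The controls were 1.55, 3.05 and 3.61 CPM at the lowest, median and highest, and the fear case libraries were 1.74, 3.26 and 4.13 CPM. The log2 fold change was 0.20 (SE 0.25, adjusted p = 0.906), and leaving out 1 library gave values from 0.081, when that was control 6, to 0.32, when it was fear case 1. Tac2, the precursor of neurokinin B, spans bases 127724478 to 127731768 of chromosome 10, plus strand. It ran from 0.37 CPM (7 counts, control 2) to 2.50 CPM in the controls and from 0.51 CPM (12 counts, fear case 1) to 2.06 CPM in the fear case libraries. Each group thus had 1 library with few counts, and the log2 fold change of 0.26 had an SE of 0.38 (adjusted p = 0.921). It was 0.064 without control 2 and 0.53 without control 1 (adjusted p = 0.988 and 0.824), the lowest and highest values with 1 library left out.

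Divided by exonic length in kilobases, the levels set Sst (133 ± 28.0 CPM per kb, mean ± SD over 12 libraries) and Cck (132 ± 20.4) at the top. Their order was not resolved, since Sst was the higher in 5 of 12 libraries. Npy followed at 60.6 ± 11.8 and Penk at 12.1 ± 2.32 CPM per kb, each below its neighbour in 12 of 12 libraries. Cort (2.74 ± 0.967) and Vip (2.63 ± 0.386) came next and were not resolved from each other, with Cort higher in 5 of 12. Below them were Pdyn at 1.62, Crh at 1.07, Tac2 at 1.05 and Tac1 at 0.858 CPM per kb, where neighbours overlapped. The choice of length changed part of this order. Divided by the length of 1 transcript, that with the longest coding sequence, Cck stood at 215, Vip at 5.84, Tac1 at 2.37, Pdyn at 1.96 and Tac2 at 1.71 CPM per kb, with Crh last at 1.07. Cck was then above Sst, and Vip above Cort, in 12 of 12 libraries, and Tac2 was above Crh in 11 of 12.

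**Figure D3:**
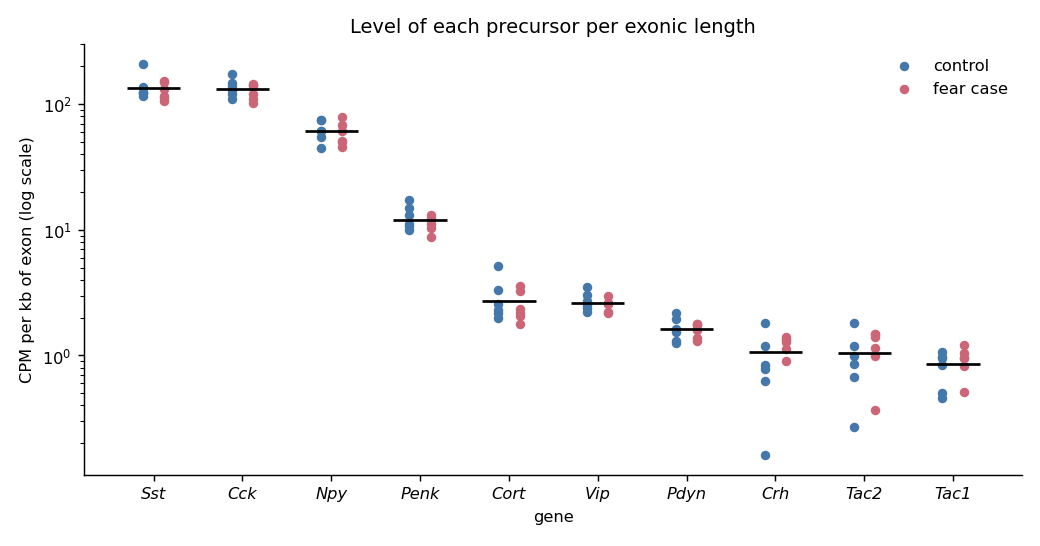
CPM per kb of exon on a log scale for each precursor gene, in order of the mean over 12 libraries (black line); blue points are the 6 control and red points the 6 fear case libraries. The levels span from 0.858 (Tac1) to 133 (Sst), and the groups overlap at every gene.

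As a share of the summed CPM of the 10 genes, Cck made up 50.1 ± 3.04% (mean ± SD over 12 libraries) and Sst 28.0 ± 2.93%. Npy made up 9.96 ± 1.02% and Penk 5.72 ± 0.493%. The low members' shares were more variable for their size, as with Crh at 0.409 ± 0.158% and Tac2 at 0.412 ± 0.152%. The summed level ran from 293 to 478 CPM in the controls and from 272 to 375 CPM in the fear case libraries.

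The libraries differed among themselves more than the groups did, and control 1 stood out for these genes. It was the highest of the 12 libraries for 7 of the 10 members (Sst, Vip, Cck, Penk, Tac2, Crh and Cort), while it was highest for 12% of the 13504 tested genes whose mean reached 1 CPM. Its median deviation from the gene means was 0.48 on the log2 scale over the 10 members and -0.0014 over those 13504 genes. Genes that process, store or receive peptides were also high there: the median deviation was 0.32 over the 18 processing and granule genes and 0.24 over the 18 tested peptide receptors. That of the 21 tested interneuron markers other than the members was -0.04. In fear case 6 the median deviation was 0.22 over the processing and granule genes and 0.20 over the peptide receptors. Choroid plexus markers were high in control 1 too, with a summed level of 2896 CPM against 1050 at the lowest control. Control 3 had the next highest control sum, 2002 CPM, and a median deviation over the 10 members of 0.26. Control 6, with the lowest control sum, was at -0.24. Fear case 6 also had a high choroid plexus sum, 2176 CPM, and its median deviation over the 10 members was 0.09. Fear case 2, with a sum of 107 CPM, was at 0.17. The part of these markers in the member levels of control 1 was not tested. At the other end, fear case 1 was the lowest library for 3 members (Vip, Cck and Penk), with a median deviation of -0.32, and control 2 for another 3 (Pdyn, Tac2 and Crh).

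**Figure D4:**
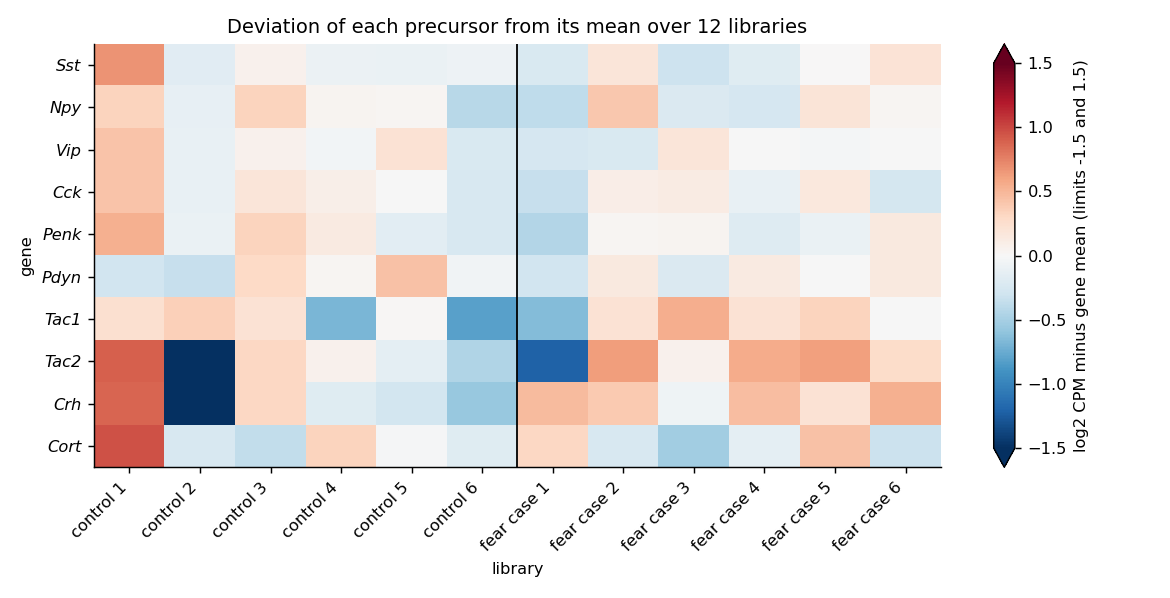
Log2 CPM of each precursor gene minus its mean over the 12 libraries, with red above and blue below the mean and a line between control and fear case libraries. Control 1 is above the mean for 9 of 10 genes and control 6 for 0 of 10, and the darkest cells are Tac2 and Crh in control 2, with 7 and 4 counts.

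How the members varied together was measured by correlating log2 CPM over the 12 libraries, for 45 pairs. Of the 45 Pearson coefficients 42 were positive, with a median of 0.38. Leaving out control 1 turned some of them negative, as for Penk with Cort (from 0.23 to -0.41) and Sst with Vip (from 0.46 to -0.17). Others rose, as for Sst with Pdyn (from 0.0075 to 0.55). The share of positive coefficients among pairs of all tested genes was not measured, so this count has no background beside it. No pair passed after adjustment over the 45 (permutation test, 100000 resamples, two-sided), and 11 had an unadjusted p under 0.05. With libraries scaled by total gene counts in place of TMM, 6 pairs passed. The highest Pearson coefficient over the 12 libraries was that of Cck and Penk (r = 0.77, permutation p = 0.00361, adjusted p = 0.0524; rho = 0.64, permutation p = 0.0272, adjusted p = 0.196). Within the groups r was 0.96 in controls and 0.45 in fear case. It was 0.44 without control 1 and fear case 1, the libraries farthest from the median of Cck. Without control 1 alone it was 0.63, below the 0.72 of Sst and Npy, and by rho Npy with Penk and Npy with Cck (both 0.73) were the highest. The Cck and Penk relation therefore rests in part on these libraries.

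Sst and Npy, which many dendrite-targeting interneurons make together, had r = 0.70 (permutation p = 0.00557, adjusted p = 0.0524) and rho = 0.72 (permutation p = 0.0102, adjusted p = 0.157). This relation was present in each group, at 0.63 in controls and 0.82 in fear case. Its r was 0.82 without control 1 and fear case 6, the libraries farthest from the median of Sst. Npy with Penk (r = 0.74, rho = 0.73) and Npy with Cck (r = 0.75, rho = 0.73) had the same permutation p after adjustment, 0.0524 for r and 0.157 for rho, and each r was at least 0.56 within each group. Tac2 and Crh followed each other in the controls (r = 0.995) but not in the fear case libraries (r = -0.13), and the difference between the groups was not tested. Over all libraries r was 0.73 (adjusted permutation p = 0.0687) and rho 0.62 (adjusted permutation p = 0.196). This r was 0.42 without control 2, where both had few counts. It was 0.92 without control 2 and fear case 1, the libraries farthest from the median of Tac2. Its size thus depended on which of these libraries were kept. Members of 1 peptide family were not among the close pairs. Sst and Cort had r = 0.53 and rho = 0.13 (adjusted permutation p = 0.258 and 0.851), and r was -0.10 without control 1. Tac1 and Tac2 had r = 0.35 (adjusted permutation p = 0.462), and Penk and Pdyn r = 0.048 (adjusted permutation p = 0.969).

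**Figure D5:**
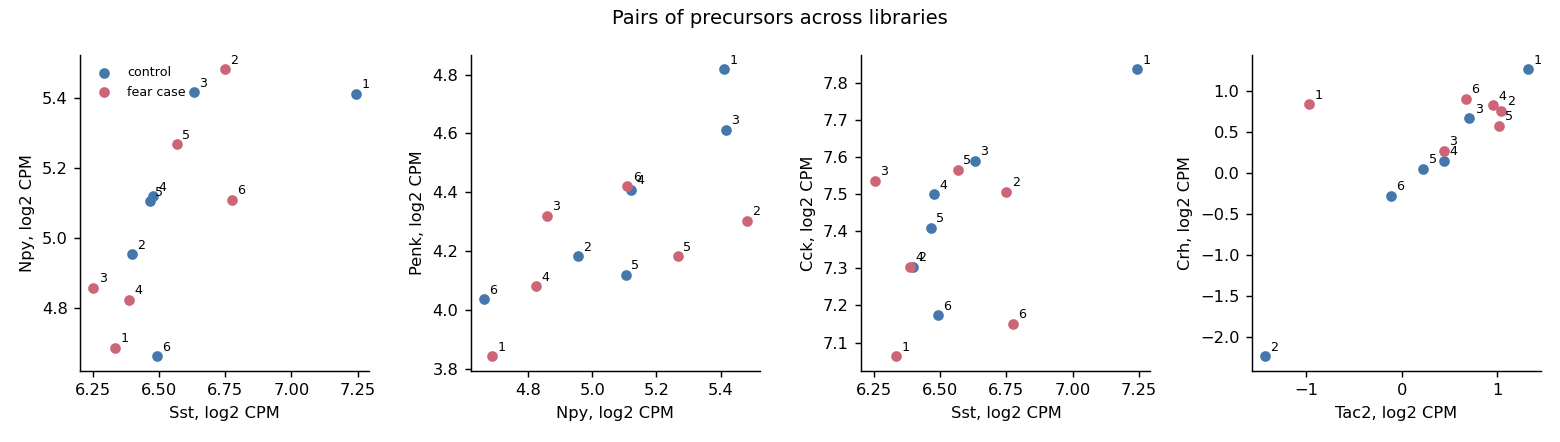
Log2 CPM (with no prior count) of 4 pairs of precursor genes, with 1 numbered point per library, blue for control and red for fear case. Within each group Sst and Npy tend to be high together, but control 6 is the lowest library for Npy and near the control median for Sst. Control 1 sits alone at the top right for Sst and Cck, and control 2 and fear case 1 set the left edge for Tac2 and Crh.

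Among the other 13503 tested genes whose mean reached 1 CPM, the closest in pattern to Npy was Cidea (r = 0.96, rho = 0.99 over 12 libraries). The closest to Penk were Sparc (r = 0.96) and Ctsd (r = 0.95), to Sst Fads1 (r = 0.93) and B3galnt1 (r = 0.92), and to Cck Thy1 and Nsg1 (both r = 0.92). These are the highest of 13503 coefficients, all share the same 12 libraries, and are given as a description.

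The receptors through which these peptides act gave 0 called of 18 tested, with 11 positive and 7 negative log2 fold changes and a median of 0.07. Npy2r, a presynaptic receptor of neuropeptide Y, was at 28.1 ± 4.29 CPM in control and 29.6 ± 4.68 CPM in fear case. The somatostatin receptor gene Sstr3 differed by 0.17 on the log2 scale (adjusted p = 0.747) and Npy1r by 0.15 (adjusted p = 0.800). Vipr2 differed by -0.70 (adjusted p = 0.816) at a mean of 0.484 CPM. Sstr5, Npy4r, Npy6r, Cckar and Tacr2 were too low to be tested.

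The enzymes and granule proteins that turn precursors into stored peptides gave 0 called of 18 tested, with a median of 0.01 and 2 at an unadjusted p under 0.05. Those were Cadps2 and Cadps, which prime dense-core vesicles for release, whose log2 fold changes were 0.22 (adjusted p = 0.290) and 0.21 (adjusted p = 0.602). The carboxypeptidase gene Cpe (678 ± 125 against 683 ± 95.5 CPM) and the granin gene Chgb (745 ± 84.9 against 760 ± 170 CPM) were the most abundant. Of 9 peptidases that can degrade neuropeptides 0 were called. Ace, which encodes angiotensin-converting enzyme, gave a log2 difference of -0.87 (SE 0.32, adjusted p = 0.524), and it passed without fear case 6, with an adjusted p of 0.000191. Thop1, an oligopeptidase gene, was at -0.18 (adjusted p = 0.613). All 14 choroid plexus markers passed in the same direction in that fit, and their part in the Ace value was not tested.

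Of 49 other peptide precursors 14 reached the level for testing and 0 were called, with a median log2 fold change of 0.02. Vgf, an activity-regulated precursor, was at 60.7 CPM in control and 61.2 CPM in fear case on average. Nts, the neurotensin precursor gene, was at 0.23 on the log2 scale (adjusted p = 0.832), Nppc at -0.41 (adjusted p = 0.793) and Pomc at -0.54 (adjusted p = 0.821). The hypothalamic precursors Oxt, Avp, Hcrt, Pmch and Agrp had 0 to 10 counts per library.

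The cells that hold the precursors were followed through markers that exclude the members. Of the interneuron markers 0 of 21 tested were called, with a median of 0.07, 16 positive, and a summed level of 1013 to 1186 CPM in control and 1119 to 1243 CPM in fear case. The GABA-synthesis genes Gad1 (196 ± 21.9 against 197 ± 15.1 CPM) and Gad2 (150 ± 15.5 against 159 ± 14.7 CPM) were the most abundant. Adarb2, a gene of interneurons from the caudal eminence, was at 0.22 on the log2 scale (adjusted p = 0.520), Nos1 at 0.22 (adjusted p = 0.597) and Dlx6 at 0.43 (adjusted p = 0.632). Dentate granule cell markers were well detected, with 0 of 11 called and a median of 0.06, and Prox1 was at 114 ± 12.4 against 125 ± 8.04 CPM.

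Penk, Tac1 and Pdyn are also strong transcripts of the striatum, and Tac1 and Tac2 of the habenula, so the markers of neighbouring regions were measured beside them. Of 9 tested striatal markers 1 was called: Ppp1r1b fell, from 68.3 ± 6.37 to 40.2 ± 8.58 CPM (-0.76 on the log2 scale, SE 0.11, adjusted p = 0.00224). The summed level of the 12 listed striatal genes was 183 to 202 CPM in control and 156 to 180 CPM in fear case (exact two-sided permutation p = 0.00216, the smallest that 924 relabellings can give, adjusted p = 0.0195 over 9 measures). Without Ppp1r1b it was 117 to 139 against 113 to 134 CPM (exact permutation p = 0.948). Most of that remaining sum was Pde10a, at a mean of 97.7 CPM and a log2 fold change of 0.06. Of the 9 tested striatal genes, with Ppp1r1b among them, 8 had negative log2 fold changes, and the median was -0.23. The defining striatal genes Drd1, Drd2 and Adora2a had means of 3.67, 0.978 and 0.682 CPM, with log2 fold changes of -0.05, -0.19 and -0.68, none called. Neocortex and claustrum markers gave 0 called of 12 (627 to 868 against 630 to 820 CPM in sum), and thalamus and habenula markers 0 of 8 (177 to 213 against 167 to 220 CPM). Lef1 of the thalamus list was at -0.48 (adjusted p = 0.603) and Fezf2 of the neocortex list at 0.15 (adjusted p = 0.644). The habenula genes Gpr151 and Pou4f1 had 0 to 15 counts per library.

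Gene counts per library ran from 18.6 to 44.2 M with a median of 21.6 M, and fear case 6 was both the deepest and the one with the largest share of ribosomal RNA precursor (Rn45s, 12.5%). Choroid plexus markers summed to 1050 to 2896 CPM in control and 101 to 2176 CPM in fear case, with 0 of 14 called and a median log2 fold change of -1.52. Without fear case 6, 14 of 14 were called lower. Without fear case 6, 0 of the 10 precursors were called.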

How the data were processed

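Polyribosomal RNA of 12 hippocampal samples was pelleted through a 1 M sucrose cushion (4 h), made into libraries with a SMARTer total RNA kit and read as 40 bp pairs, per the labels' protocols. The deposited values are whole-number counts per gene symbol, without normalization. Cutadapt, TopHat, Bowtie, HTSeq and mm10 are listed in the submitters' processing notes; versions, annotation and strandedness: not given in the sources used here. Summary lines of the counter were left out of library sizes and tests. Reads on no gene were 25.5% to 33.3% of those on genes, on none or ambiguous. Alignments that the counter listed as not unique, 67.8 to 115 M per library, are outside that share.

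The test used edgeR 4.0.16 under R 4.3.3: filterByExpr by group (minimum count 10, minimum total 15), TMM scaling, quasi-likelihood test without covariates, Benjamini-Hochberg adjustment over 14564 genes and calls under 0.05. Standard errors were derived as log2 fold change over the root of F, and intervals use the fit's degrees of freedom. Log2 CPM has a prior count of 2. Lists were described by counts and medians. Single values per library were compared by exact permutation over 924 relabellings. Lengths, coordinates and coding sequences are from GENCODE vM21 (GRCm38, the assembly of mm10), where 23376 of the 24421 symbols were found, and promoters from RefSeq. The fit was tested on simulated data. DESeq2 1.42.0 and limma 3.58.1 (voom), other scalings and filters, a replicate block and leaving out each library were tried.

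The members and lists were chosen with earlier results of these data known. Genes named are the 10 members, Fos, Npas4 and Arc, and from each list the called genes, the 2 most abundant and the 3 of lowest p, of which a selection is printed, with the closest genes in pattern. Drd1, Drd2, Oxt, Avp, Hcrt, Pmch, Agrp, Gpr151, Pou4f1 and untested receptors were named after their values were seen. At the median depth 1 CPM is about 21.6 counts.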

Additional observations from a re-analysis of the deposited data

Results flagged for a closer look

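Gaps within a group were compared with the group's range for 38 sets of 6 libraries, where chance flags about 1 in 20, and 5 were flagged. Sst in control 1, at 152 CPM, stood apart from the other controls, the next of which was 99.1 CPM, and it was the only flag among the 20 sets of member values. Fear case 6 stood apart in gene counts (44.2 M, next 24.2 M), in the Rn45s share (12.5%, next 6.23%) and in the summed choroid plexus markers (2176 CPM, next 569.5 CPM). The summed hypothalamic markers were 9.18 CPM in control 3, next 3.37 CPM. Most of that was Pomc, with 174 counts (8.11 CPM) in control 3 against 16 to 56 in the other libraries, while Oxt, Avp, Hcrt, Pmch and Agrp had at most 10 counts in any library.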

How the results depend on the processing

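Over 20 alternatives (3 scalings, 2 filters, DESeq2, limma-voom, a replicate block and 12 fits without 1 library), 0 of the 10 precursors were called in any, and their lowest adjusted p was 0.640. The lowest unadjusted p was 0.0457, for Crh without control 1. Signs turned in 5 of these 200 values: Sst (0.034) and Cort (0.035) without control 1, and Pdyn without control 3 (0.014), control 5 (0.053) or fear case 1 (0.0054). Without 1 library, the log2 fold change ranged from -0.18 to 0.034 for Sst, -0.33 to 0.035 for Cort and -0.11 to 0.053 for Pdyn. The 15 genes called over the whole table became 33 by total counts, 61 with DESeq2 and 37 without a filter, and 9 to 128 without 1 library, the latter without fear case 6. Without 1 library the peptidases called ranged from 0 to 1 and the choroid plexus markers from 0 to 14, both highest without fear case 6. The 0 correlated pairs became 6 by total counts and 0 to 3 without 1 library, the most without fear case 6. Of 9 library measures 1 passed, and 1 to 2 without 1 library (2 without fear case 3 or 6). With replicate number as a replicate block 18 genes and 0 precursors were called. Same-numbered samples deviated with correlations of -0.17 to 0.047, and the labels name no pairing, so the numbers were not taken to pair samples. The striatal sum, the leave-one-out of library measures and the length of 1 transcript were chosen after seeing the data. Depth limits Tac2, Crh and Cort most, with median counts of 22.5 to 44.5 per group.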
